A study of Mus with 3 samples.

Results

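The voltage-gated sodium and calcium channel genes are described here across 3 arrays of mouse hippocampus. Members were the genes whose name in the scanner files was Scn, a number and a or b, or began with Cacna, Cacnb or Cacng. Cacng2, Cacng3 and Cacng8, which regulate AMPA receptors, were left out by the rule, and Scn2a1 was counted as Scn2a. The array held 37 such genes, of 23693 named genes in all. A gene counted as measured if a probe of it reached a signal to noise score of 2.6 on every array, and its brightest such probe stood for it. By this 24 of the 37 members (64.9%) and 13189 of all genes (55.7%) were measured.

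The tissue came from male Slc:ddY mice, an outbred stock, aged 6 weeks. The ASO group received shochu oil, an oily fraction of sweet potato spirit, by mouth at 2000 mg/kg/day for 15 days, while the ACO and NCO groups received distilled water by mouth. ASO and ACO mice were given 5 µL with 10 nmol of the amyloid fragment Aβ25-35 into the cerebral ventricles on day 8. NCO mice were given 5 µL of distilled water, and the labels do not state by which route, so peptide and injection cannot be told apart in ACO against NCO. The protocol text calls the other peptide-injected group by letters found on none of the samples, and the design text was used to read it as ASO. The hippocampus was taken after a maze test on day 16. RNA of 10 mice per group was pooled, as 5 sets of 2 mice, and 200 ng was labelled with Cy3 for 1 array per group. There were no replicates, so no test between groups was possible, and every value below describes these 3 pools.

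Voltage-gated sodium channels carry the inward current that starts and propagates the action potential. A large pore-forming α subunit makes the channel, and small β subunits set its gating and its place in the membrane. Voltage-gated calcium channels turn the same depolarisation into calcium entry, which triggers transmitter release at terminals and signals to the nucleus from dendrites. Their α1 pore defines the current type (L, P/Q, N, R or T), and β and α2δ subunits bring it to the surface. In the hippocampus these genes set the firing of pyramidal cells, granule cells and interneurons. In bulk tissue, fewer cells of a type and less RNA per cell cannot be told apart.

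Each array carried 43020 gene spots of 39429 probes, and 53.7% of the probes were above background on ASO, 51.7% on ACO and 50.9% on NCO. The median foreground intensity was 97 on ASO, 95 on ACO and 88 on NCO. Signals below are background-corrected intensities scaled to a common 75th percentile. They compare arrays for the same probe and do not rank genes by abundance. Differences are on the log2(signal + 50) scale, which draws those of dim probes towards 0, and a difference was counted past 1.2-fold, or 0.263. Over 250 probes printed at 10 spots each, the median SD of a difference over spots was 0.08 (ACO minus NCO), 0.09 (ASO minus ACO) and 0.10 (ASO minus NCO). It covers the error of spots and not that of mice, extraction or labelling.

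In ACO against NCO, the comparison of peptide with control, most channel genes stood close together. Cacna1h, a T-type calcium channel pore, was 1.36-fold higher on ACO. Scn4b, a sodium channel β subunit, and Scn8a, a sodium channel pore of the axon initial segment, were lower, at -0.44 and -0.31. These 3 of 24 members (12.5%) passed 1.2-fold, beside 5.47% of all genes (2.78% higher and 2.69% lower), and none reached 2-fold, as 0.0758% of all genes did. Of these 3 genes only Scn8a had further measured probes, and those lay within 1.2-fold. The median over the members was -0.01, with 11 higher and 13 lower, beside 0.00 over all genes. Sodium channel genes were lower in 7 of 9 cases (median -0.07) and calcium channel genes higher in 9 of 15 (median 0.08). Of all genes 51.8% were higher. The 7 lower sodium channel genes included Scn2a at -0.0008 and Scn2b at -0.02. The median spot SD of 0.08 is for the spots of a single probe, so it does not measure the error of these medians over genes.

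In ASO against ACO, the comparison of oil with water in peptide-injected mice, 4 members were higher past 1.2-fold and 1 was lower. Cacnb4, a calcium channel β subunit, was 1.55-fold higher on ASO. Scn8a and Cacnb1 were among the others higher, at 0.38 and 0.32, though not past 1.2-fold under every setting, and Scn3a was lower at -0.53. The 5 of 24 members (20.8%) lay near the 19.6% of all genes past 1.2-fold (10.1% higher and 9.44% lower), so the share is not a result about the channels. None reached 2-fold, as 0.243% of all genes did. The median over the members was 0.05, with 14 higher, beside -0.02 over all genes.

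In ASO against NCO, 2 calcium channel genes were higher and 1 sodium channel gene was lower past 1.2-fold. Cacnb4 was 1.68-fold and Cacna1h 1.56-fold higher on ASO, and Scn3a was at -0.29. These 3 of 24 members (12.5%) compare with 18.7% of all genes (10.3% higher and 8.4% lower). None reached 2-fold, as 0.265% of all genes did. The median over the members was 0.02, with 13 higher and 11 lower, beside -0.02 over all genes. The comparisons share arrays, ACO in the peptide and oil comparisons and NCO or ASO in the others, so their differences are not independent.

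**Figure D1:**
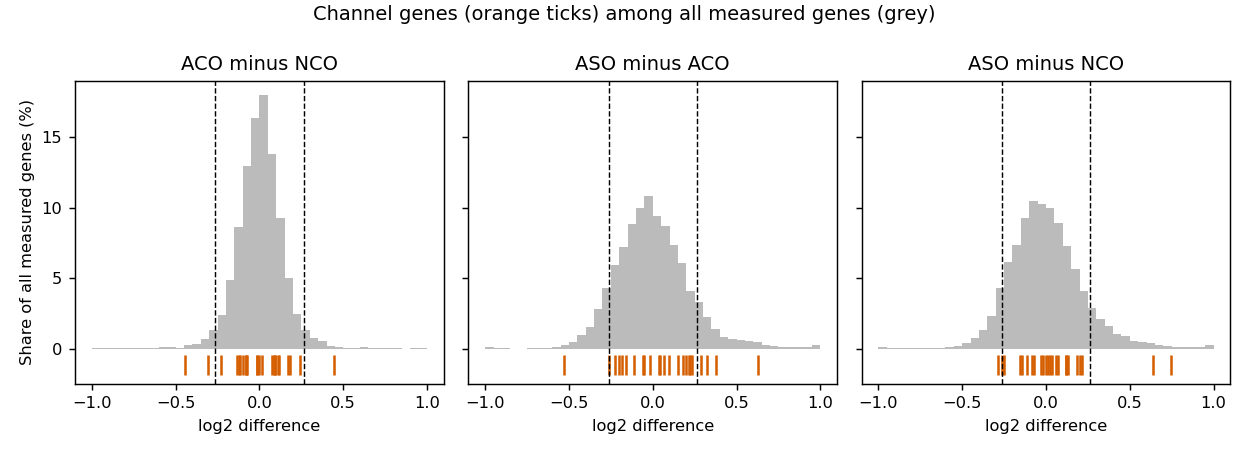
Share of all 13189 measured genes (%, grey bars) by log2 difference in each comparison, with the 24 channel genes as orange ticks under the bars; dashed lines mark 1.2-fold, and differences beyond 1 in size are put in the end bars. Most ticks lie within the dashed lines, and Cacnb4 is the tick farthest right in both comparisons of ASO.

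Among the sodium channel pores, 5 of 10 were measured. Scn1a, the main sodium channel of fast-spiking interneurons, had a signal of 3384 on ASO, 3424 on ACO and 4031 on NCO. The differences were -0.23 (ACO minus NCO), -0.02 (ASO minus ACO) and -0.25 (ASO minus NCO), all within 1.2-fold. NCO thus stood above both ASO and ACO. A second, dimmer Scn1a probe did not show this, with 165 on ASO, 159.9 on ACO and 163 on NCO and no difference over 0.04 in size.

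Scn2a, the pore of excitatory axons and initial segments, had 3542 on ASO, 3828.5 on ACO and 3831 on NCO. ASO was lowest, at -0.11 against each of the other arrays, but correction by the surrounding spots put ASO against NCO at 0.01. A dimmer Scn2a probe went the other way, with 256 on ASO, 216 on ACO and 253 on NCO. There ASO was at 0.20 over ACO, and ACO at -0.19 against NCO. Scn8a, which joins Scn2a at the initial segment and takes over at mature nodes, had 284 on ASO, 207 on ACO and 268 on NCO. The ACO array was low and the other arrays close together, with ASO against NCO at 0.07. A second Scn8a probe had 220.0 on ASO, 163 on ACO and 164 on NCO, so here ASO stood apart and ACO did not. It shared the higher level on ASO than on ACO (0.34) and gave -0.01 for ACO against NCO. The remaining Scn8a probe, near background, gave -0.03 for ASO against ACO and -0.04 for ACO against NCO. On ASO against ACO, Scn8a was no longer past 1.2-fold with the mean over its probes (0.23) or with 200 added in place of 50 (0.25). The spots around the main Scn8a probe were themselves at -0.11 for ACO against NCO, and Scn8a was at -0.20 after that was subtracted, within 1.2-fold.

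Scn3a, a pore that rodents express mainly before and around birth, had 1202 on ASO, 1757 on ACO and 1476 on NCO. ACO was highest and ASO lowest, and the difference of -0.53 for ASO against ACO was the lowest of the 24 members. The second Scn3a probe was nearly flat, with 1121 on ASO, 1130.0 on ACO and 1111 on NCO, a difference of -0.01 for ASO against ACO.

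All 4 sodium channel β subunits were measured, each by 1 probe. Scn4b, which in rodents can act as the open-channel blocker behind resurgent current, had 439 on ASO, 381 on ACO and 536 on NCO. NCO was highest, and the differences were -0.44 (ACO minus NCO), 0.18 (ASO minus ACO) and -0.26 (ASO minus NCO). Spot means in place of medians put Scn4b at -0.30 for ACO against NCO and at only -0.08 for ASO against NCO. Scn4b was the only member in the authors' deposited table, whose values were 375.8 on ASO, 350.6 on ACO and 483.8 on NCO. On the same log2 scale the authors' deposited table gave -0.41 (ACO minus NCO), 0.09 (ASO minus ACO) and -0.33 (ASO minus NCO).

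Scn2b, a β subunit that bonds covalently to the pore, had 9632 on ASO, 8256 on ACO and 8357 on NCO. ASO was the high array, at 0.22 over ACO and 0.20 over NCO, within 1.2-fold. Scn3b, a β subunit held to the pore without a covalent bond, had 3378 on ASO, 3497 on ACO and 3317 on NCO, and its arrays lay within 0.08 of each other.

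**Figure D2:**
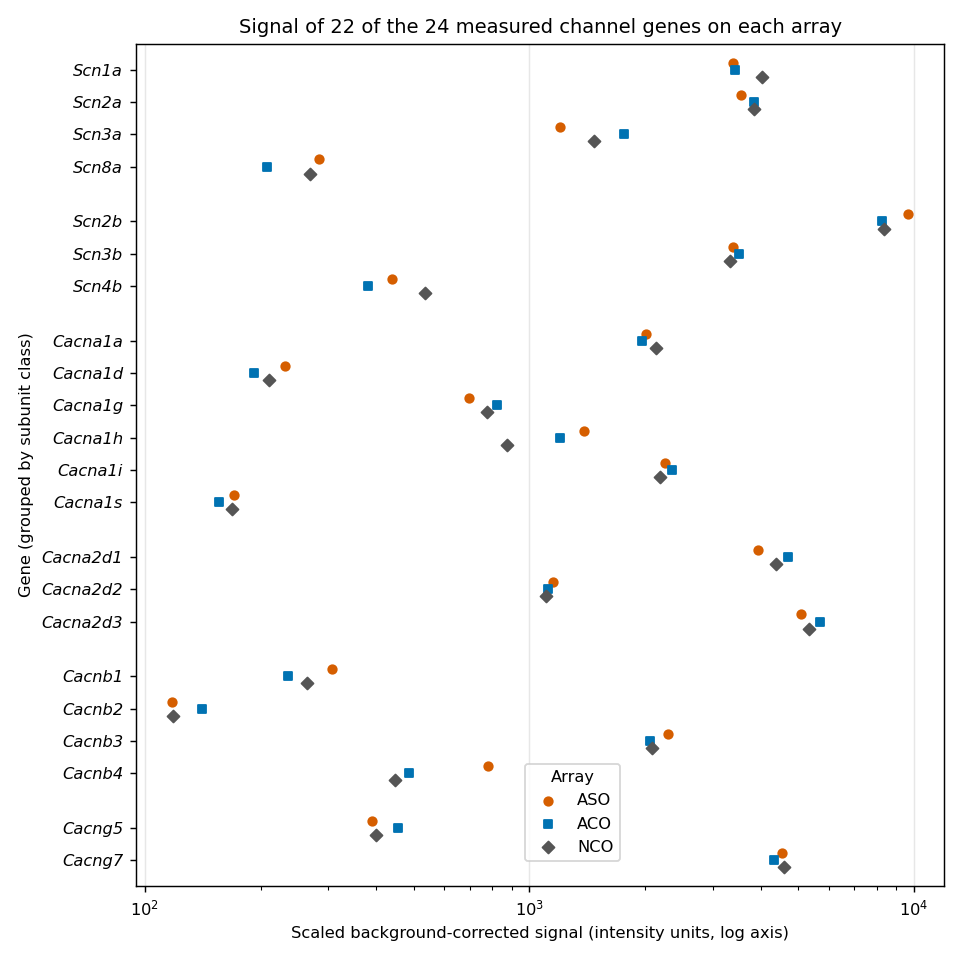
Scaled background-corrected signal (log axis, intensity units) of 22 of the 24 measured members on the ASO, ACO and NCO arrays, 1 point per array, grouped by subunit class. Most genes have their 3 points close together, while Cacnb4 is higher on ASO, Cacna1h is higher on ASO and ACO, and Scn4b is higher on NCO; positions of different genes depend on their probes.

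Among the calcium channel pores, 6 of 10 were measured. Cacna1h, a T-type pore that opens near rest and shapes burst firing, had 1387 on ASO, 1203 on ACO and 872 on NCO. Both ASO and ACO lay above NCO. ASO was at 0.20 over ACO, but spot means in place of medians put this at -0.02, so the order of ASO and ACO is not settled. Its difference of 0.44 for ACO against NCO was higher than that of 99.5% of all genes. After correction by the surrounding spots it stood at 0.50 for ACO against NCO and 0.63 for ASO against NCO. Only 1 of 2 Cacna1h probes was measured, and the other was not well above background on any array.

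For the other T-type pores no difference of the chosen probe passed 1.2-fold. Cacna1g, a T-type pore of bursting neurons, had 697 on ASO, 825 on ACO and 775 on NCO, with ASO lowest at -0.23 against ACO, while its second probe gave -0.06. That probe had 702 on ASO, 734 on ACO and 716 on NCO. Cacna1i, the slowest T-type pore, had 2246 on ASO, 2343 on ACO and 2191 on NCO, all within 0.09. Its second probe, near background, had 89.2 on ASO and 55.5 on each of ACO and NCO, which puts ASO at 0.40 against either. With the mean over both probes Cacna1i stood at 0.05 (ACO minus NCO), 0.17 (ASO minus ACO) and 0.22 (ASO minus NCO).

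Cacna1a, the P/Q-type pore of fast transmitter release, had 2007 on ASO, 1957 on ACO and 2131 on NCO, with no difference over 0.12 in size. Its second probe went the opposite way in each comparison, at 0.09 (ACO minus NCO), -0.03 (ASO minus ACO) and 0.06 (ASO minus NCO). Cacna1d, an L-type pore, had 232 on ASO, 192 on ACO and 209.7 on NCO, with ASO at 0.22 over ACO, or 0.08 with spot means. Its second probe had 66.4 on ASO, 62.1 on ACO and 68.2 on NCO, with ASO at 0.05 over ACO and -0.02 against NCO. Cacna1s, the L-type pore of skeletal muscle, was above background on every array, with 170.4 on ASO, 156 on ACO and 168 on NCO. Of 4 skeletal muscle markers only Acta1 was measured, at 202 on ASO, 182 on ACO and 217 on NCO.

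The α2δ subunits, which carry calcium channels to terminals and bind gabapentin in the case of Cacna2d1 and Cacna2d2, were measured for 3 of 4 genes. Cacna2d1 had 3926 on ASO, 4714 on ACO and 4372 on NCO. ASO was lowest, at -0.26 against ACO, just short of 1.2-fold, but its second probe had 3139.6 on ASO, 2905 on ACO and 2899 on NCO and gave 0.11. Cacna2d2 had 1152 on ASO, 1116 on ACO and 1104 on NCO and was the steadiest of the 24 members, with a range of 0.06. Cacna2d3 had 5092 on ASO, 5705 on ACO and 5349 on NCO, with ASO lowest at -0.16 against ACO.

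The 4 calcium channel β subunits, which bind the pore from inside the cell and free it from retention, were all measured, each by 1 probe. Cacnb4, of which loss causes ataxia and seizures in lethargic mice, had 782 on ASO, 487 on ACO and 446 on NCO. ASO stood apart from both other arrays, at 0.63 over ACO and 0.75 over NCO, while ACO and NCO differed by 0.12. This was the widest range of any member and lay above 98.8% of all genes in ASO minus ACO and above 99.3% in ASO minus NCO. The surrounding spots were at 0.10 for ASO against ACO, and Cacnb4 was at 0.53 after correction.

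Cacnb1, the β subunit of skeletal muscle that brain also expresses, had 307 on ASO, 236 on ACO and 264 on NCO, with ASO highest. Its surroundings were at -0.12 in both comparisons of ASO, and after correction it stood at 0.44 over ACO and 0.31 over NCO. With spot means (0.23) or with 200 added (0.22) it was no longer past 1.2-fold for ASO against ACO. Cacnb2, a β subunit best known from heart, was dim and had 118 on ASO, 141 on ACO and 118 on NCO, with ACO highest by 0.18 over NCO. Cacnb3, a β subunit of brain N- and L-type channels, had 2294.5 on ASO, 2064 on ACO and 2087 on NCO, within 0.15. Of the 4 genes, 3 were higher on ASO than on ACO, with a median of 0.24.

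Of the 5 γ subunit genes, 2 were measured. Cacng5, an atypical AMPA receptor regulator found in the CA2 field of the hippocampus, had 389 on ASO, 454 on ACO and 399 on NCO. ACO was highest, and Cacng5 passed 1.2-fold after correction by the surrounding spots, at -0.37 for ASO against ACO. Cacng7, another AMPA receptor regulator, had 4528 on ASO, 4328 on ACO and 4588 on NCO, within 0.08.

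**Figure D3:**
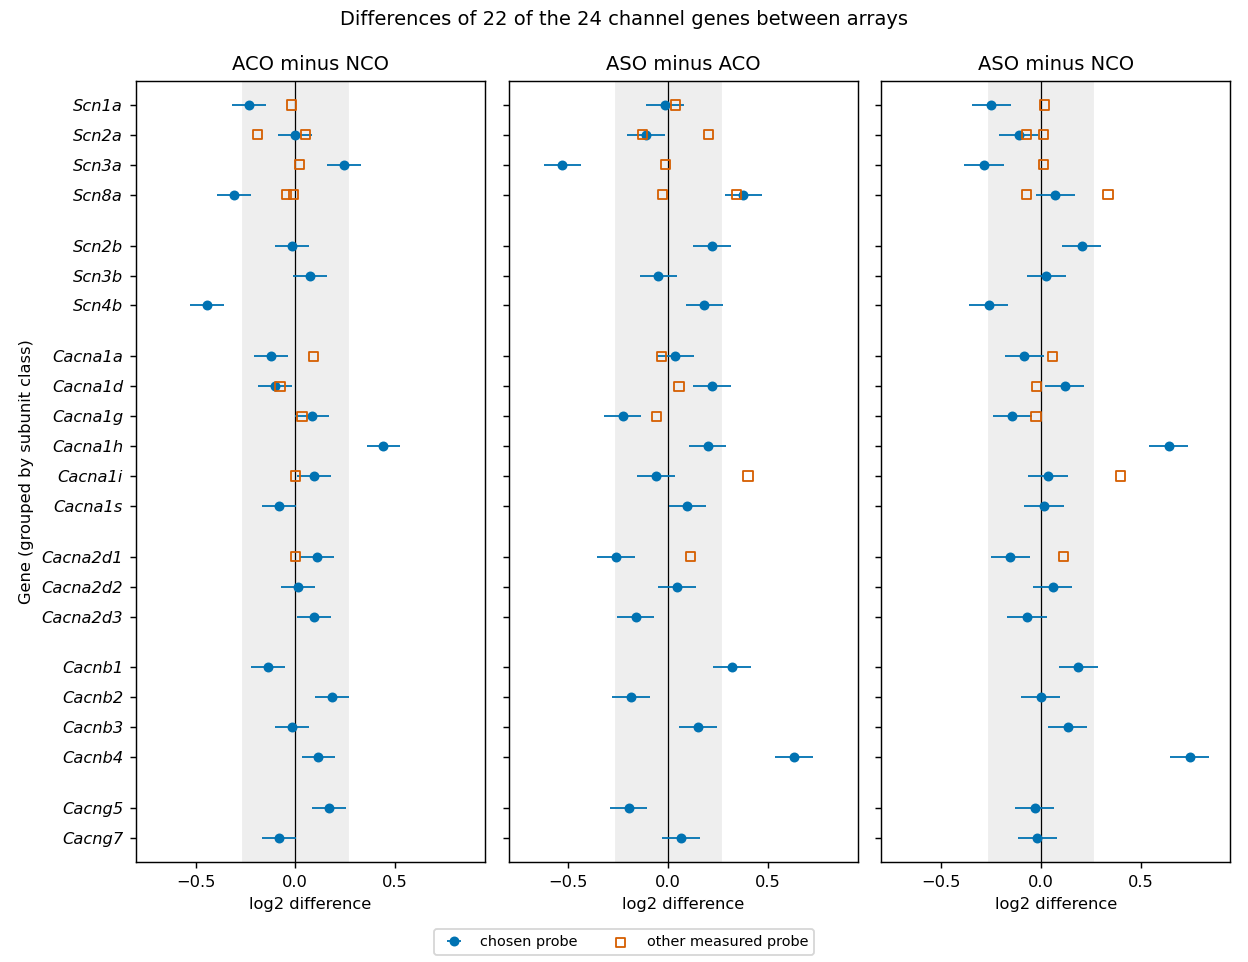
log2 difference of 22 of the 24 measured members in the 3 comparisons (filled points, the chosen probe; bars, plus and minus the median spot SD of that comparison, not an error between groups), with other measured probes of the same gene as open squares; the grey band marks differences within 1.2-fold. Scn3a shows the widest gap between probes for ASO against ACO, and Cacnb4, Cacna1h, Scn4b and Cacnb1 have no second measured probe.

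The 13 members that were not measured comprised 9 with no array above background and 4 with 1 or 2. Those above background nowhere were Cacna1b (N-type), Cacna1c (L-type), Cacna1f of the retina, Cacna2d4, Cacng1 of skeletal muscle, the sensory neuron pores Scn9a, Scn10a and Scn11a, and Scn7a. Each had 1 probe, so a weak probe and a low transcript cannot be told apart. For Cacna1c, a probe under the clone name D930026N18Rik, which RefSeq lists as a synonym of Cacna1c, was bright, with 5484 on ASO, 6369 on ACO and 6516 on NCO. On that probe ASO was at -0.21 against ACO and -0.25 against NCO, and the rule does not count it.

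Cacna1e, the R-type pore, had 90.2 on ASO, 50.7 on ACO and 66.1 on NCO, and was not well above background on NCO. It was at 0.48 for ASO against ACO. Against NCO the probe's own signals put ASO 1.21-fold higher. The NCO signal was under the threshold, so this is neither a measured difference nor a minimum. Cacng6 had 61.5 on ASO, 42.2 on ACO and 55.5 on NCO, and was not well above background on ACO. The probe's own signals put ASO 1.21-fold and NCO 1.14-fold over ACO, with the same limit. Scn4a, the pore of skeletal muscle, had 53.5 on ASO, 46.9 on ACO and 66.1 on NCO, with ACO not above background. Cacng4 was above background only on ASO, with 49.6 on ASO, 46.9 on ACO and 48.0 on NCO. All 4 lie near background, and the nearest member inside the threshold was Cacna1s, with a signal to noise score of 5.39 on ACO against 2.25 for Cacna1e on NCO.

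Probes of the same gene bear on how far a single difference can be read. Of the 24 measured members, 9 had over 1 measured probe, with 11 further probes. The further probe had the sign of the chosen one in 9 of 11 cases in ACO minus NCO, 5 of 11 in ASO minus ACO and 4 of 11 in ASO minus NCO. A shared sign says little where a probe lies near 0. In ACO minus NCO this held for further probes of Cacna1i (0.0004), Cacna2d1 (0.0029) and Scn8a (-0.008), among others. The median gap between them was 0.19, 0.17 and 0.14, beside a median size of the members' differences of 0.10, 0.19 and 0.12 in the same order. Of the 7 members past 1.2-fold in some comparison, Scn8a and Scn3a had a second measured probe, and it passed 1.2-fold in the same comparison for Scn8a in ASO against ACO.

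Scn2a was the member with spot replicates, since a further Scn2a probe was printed at 10 spots. Its signal ran over spots from 2006 to 3097 with a median of 2829.97 on ASO, from 2129 to 3489 with a median of 3087 on ACO, and from 1994 to 3401 with a median of 2977 on NCO. The arrays overlap widely, so differences were taken spot by spot. The mean difference was -0.13 ± 0.10 for ASO against ACO, lower in 9 of 10 spots, 0.05 ± 0.08 for ACO against NCO, higher in 7 of 10, and -0.07 ± 0.11 for ASO against NCO, lower in 7 of 10 (SD over spots, n = 10). For ASO against ACO the chosen Scn2a probe gave -0.11 and the dimmer one 0.20. For ACO against NCO they gave 0.00 and -0.19, so the 3 Scn2a probes do not share a direction.

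**Figure D4:**
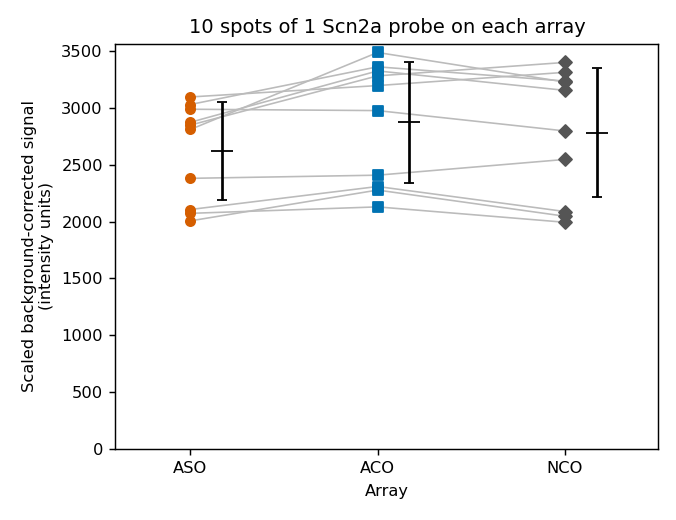
Scaled background-corrected signal (intensity units) of the 10 spots of 1 Scn2a probe on the ASO, ACO and NCO arrays; grey lines join the same spot position, and the black marks give the mean and SD over spots. The arrays overlap, and 9 of 10 lie lower on ASO than on ACO.

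Set beside the spot error, 12 of 24 members (50%) differed between ASO and ACO by more than 2 spot SDs, against 34.6% of all genes. For ACO against NCO it was 6 of 24 (25%) against 16.6%, and for ASO against NCO 7 of 24 (29.2%) against 31.9%. Spot SD was larger for dim probes, at 0.10 under a signal of 500 and 0.08 from 2000 up for ASO against ACO. ASO was the highest array for 11 members and the lowest for 8, ACO the highest for 8 and the lowest for 11, and NCO the highest for 5 and the lowest for 5.

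The genes whose products bind or anchor these channels were described as lists. Of 18 measured sodium channel partners, 1 was higher and 1 lower past 1.2-fold on ASO than on ACO, beside 19.6% of all genes. The lower one was Fgf12, an intracellular FGF that slows sodium channel inactivation, at -0.29. None passed 1.2-fold for ACO against NCO, beside 5.47% of all genes. The list medians were 0.00 (ACO minus NCO), -0.02 (ASO minus ACO) and 0.04 (ASO minus NCO). Fgf12 had 2389 on ASO, 2935 on ACO and 3129 on NCO, and stood at -0.38 for ASO against NCO. In that comparison 2 of 18 partners were higher past 1.2-fold, S100a10 among them at 0.27, and Fgf12 was the 1 lower. Of all genes 10.3% were higher and 8.4% lower past 1.2-fold there. With quantile normalization no sodium channel partner was higher past 1.2-fold in either comparison of ASO, while Fgf12 was lower in both, at -0.27 against ACO and -0.37 against NCO. Of 9 measured leak and related channels, Hcn2, a pacemaker channel, was higher on ASO than on ACO at 0.46 and than on NCO at 0.42, and Fam155a, a partner of the sodium leak channel, was lower than on ACO at -0.27. With quantile normalization Hcn2 was past 1.2-fold and Fam155a was not. The medians of these 9 were -0.04 (ACO minus NCO), -0.06 (ASO minus ACO) and -0.10 (ASO minus NCO).

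Of 30 measured calcium channel partners, 7 were higher and 2 lower past 1.2-fold on ASO than on ACO, beside 19.6% of all genes. Among the higher ones, Syt1, the calcium sensor of fusion, was at 0.63, the vesicle GTPase gene Rab3a at 0.50 and the SNARE gene Snap25 at 0.29. The calcineurin subunit gene Ppp3ca was at 0.40 and Cabp1, a calcium-binding regulator of L- and P/Q-type channels, at 0.30. Erc2, an active zone scaffold, was at -0.41 and Akap5, which tethers kinases to L-type channels, at -0.28. The list median was 0.07, with 18 higher and 12 lower, and quantile normalization put it at 0.00 with 15 and 15, 5 higher and 1 lower past 1.2-fold.

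For ACO against NCO, Snap25 at 0.29 was the 1 of 30 calcium channel partners past 1.2-fold, beside 5.47% of all genes. The list median was -0.02, or 0.01 with quantile normalization. For ASO against NCO, 8 were higher and 3 lower, beside 10.3% and 8.4% of all genes, with Rab3a at 0.71, Snap25 at 0.58 and Syt1 at 0.49 the highest. Stac2 (0.31), Ppp3ca (0.29) and Ppp3cb (0.28) were among the rest, and Erc2 (-0.37), Prkar2b (-0.31) and Jakmip1 (-0.30) were lower. The list median was 0.05, and quantile normalization put it at -0.01 with 6 higher and 3 lower past 1.2-fold.

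**Figure D5:**
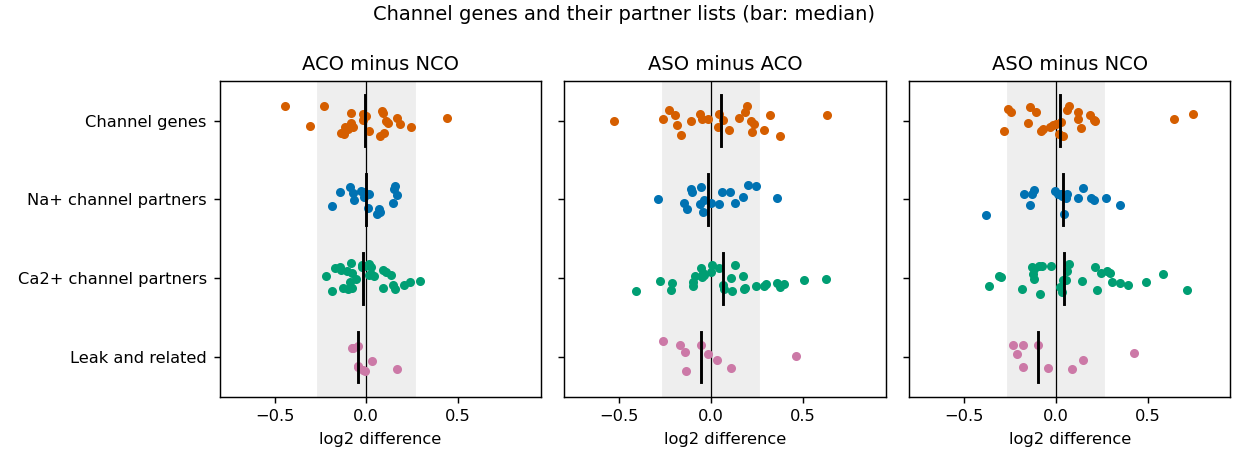
log2 differences of the 24 channel genes, 18 sodium channel partners, 30 calcium channel partners and 9 leak and related channels in the 3 comparisons, 1 point per gene, with a black bar at each median and a grey band for differences within 1.2-fold. No sodium channel partner leaves the band for ACO against NCO, calcium channel partners lie past it on both sides in the comparisons of ASO, and every median lies inside it.

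Markers of cell types and neighbouring tissues also differed between the arrays, and their part in the channel differences was not tested. All 9 general neuron markers were measured, with a summed signal of 125832 on ASO, 107935 on ACO and 113184 on NCO, and 5 were higher and 4 lower on ASO than on ACO. Their median was 0.18 for ASO against ACO, or 0.09 with quantile normalization, and -0.11 for ACO against NCO. All 6 measured dentate granule cell markers were lower on ASO than on ACO, with a median of -0.29 and a summed signal of 4681 on ASO, 5838 on ACO and 5212 on NCO. The 7 pyramidal cell markers were split for ASO against ACO, with 4 higher, 3 lower and a median of 0.13. Of 10 microglia markers 9 were higher on ASO than on ACO, with a median of 0.66. All 8 astrocyte markers were higher on ASO than on ACO, with a median of 0.10, or 6 of 8 with quantile normalization. All 7 oligodendrocyte markers were lower on ACO than on NCO, with a median of -0.19.

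Beside Cacna1h, choroid plexus markers were higher on ACO than on NCO in 7 of 8 cases, with a median of 0.53, and higher on ASO than on NCO in 7 of 8, with a median of 0.24. Their summed signal was 20264 on ASO, 20109 on ACO and 23931.5 on NCO, carried by Ttr, the 1 lower marker. They were lower on ASO than on ACO in 7 of 8, with a median of -0.23, and their part in the Cacna1h values was not tested. Beside Scn4b, which the striatum also expresses, the 4 measured of 6 striatal markers had medians of 0.00 for ACO against NCO and -0.05 for ASO against NCO. Their summed signal was 2911 on ASO, 2834 on ACO and 2623 on NCO, and Drd2 and Adora2a were not measured. Beside Scn1a, the 8 interneuron markers had a median of 0.01 for ACO against NCO, with 4 higher and 4 lower. For ASO against NCO their median was -0.04, with 3 higher and 5 lower. Slc32a1 stood at -0.24, Gad1 at -0.19 and Gad2 at 0.43 for ASO against NCO. The fast-spiking interneuron marker Pvalb had 4266 on ASO, 4238 on ACO and 4069 on NCO, within 0.07.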

How the data were processed

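Hippocampal RNA was measured on 1 one-colour array per group. The foreground and background intensities were deposited as GenePix Pro 6.1.0.4 gave them after a scan at 532 nm, and without normalization, per the file headers. The signal to noise score and the percent of saturated pixels of each spot were also deposited, per the file headers. The submitters' processing notes name Agilent Feature Extraction, whose columns were not in these files, and how the authors made their deposited table of 475 probe intensities is not given in the sources used here.

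The foreground median was corrected by the local background median with limma 3.58.1 in R 4.3.3 (normexp, saddle fit, no offset) over all spots. Control spots and 2 bad spots were then left out, arrays were scaled by 0.991 (ASO), 0.949 (ACO) and 1.06 (NCO), 50 was added, and log2 values of spots of 1 probe were averaged. Probes saturated at 50% of pixels on all arrays were left out. Surroundings were the median difference of measured gene spots within 7 rows and columns, members left out. The remaining work used Python 3.11.15, numpy 2.4.6 and pandas 2.3.3 and was tested on simulated data. Gene names were updated through RefSeq (GRCm38.p6), from which gene order but no coordinates were also taken. It named 26684 probes by accession, 2533 by symbol and 472 by a synonym, 1788 probes stayed under the name in the file, and 7952 were unnamed.

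By the naming rule, members past 1.2-fold in any comparison and the pores of the main hippocampal currents are given on every array, and partners where past 1.2-fold. The rule gives the other members by range and counts, and their array values are printed in addition. Which marker lists stand beside a result was decided with the values known. The members, lists and rule were chosen with earlier results of these data known. Single values of some members and partners are not reported here, though counts and medians include them. No test was run, and the number of arrays limits the precision.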

Additional observations from a re-analysis of the deposited data

How the results depend on the processing

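The member counts and medians were recomputed under the processing alternatives, except that the authors' deposited table holds Scn4b alone and gives no count. Of 99 such values, 84 stayed within 1.5 times the count or within the spot SD of the median, and 15 counts moved. In ACO against NCO the count lower past 1.2-fold was 1 in place of 2 with no background subtraction, with 200 in place of 50 added, with a mean of each gene's probes and after correction by the surrounding spots. In each of these Scn8a was no longer past 1.2-fold. In ASO against ACO the count lower was 2 with plain background subtraction and with no added constant, and 3 after correction by the surrounding spots, in place of 1, and the count higher was 2 in place of 4 with 200 added. In ASO against NCO the count lower was 2 with plain or no background subtraction, quantile normalization, no added constant and correction by the surrounding spots, and 0 with 200 added or with the mean over probes, in place of 1. In ASO against NCO the added lower gene was Scn4b each time, at -0.26 and just short of 1.2-fold in the main setting, and the gene lost was Scn3a. In ASO against ACO the added lower gene was Cacna2d1 with plain background subtraction and with no added constant. After correction by the surrounding spots the added lower genes were Cacna1g and Cacng5. With 200 added, Cacnb1 and Scn8a were no longer higher past 1.2-fold. Why the settings moved these genes was not tested.

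No member past 1.2-fold changed sign under any alternative run. For ASO against ACO, Scn8a ranged from 0.23 to 0.46 and Cacnb1 from 0.22 to 0.44. Cacna1h ranged from 0.39 to 0.50 for ACO against NCO and from 0.45 to 0.67 for ASO against NCO, and Cacnb4 from 0.51 to 0.68 for ASO against ACO. Scn4b ranged from -0.49 to -0.30 and Scn8a from -0.37 to -0.12 for ACO against NCO. Scn3a ranged from -0.55 to -0.27 for ASO against ACO, and -0.27 came with the mean over its probes. No paired analysis was possible because each group has 1 array.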

Other observations

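Several members lie next to each other in the RefSeq gene order, and their differences are given side by side. Scn3a and Scn2a adjoin with no coding gene between them, and Scn1a follows Scn2a after 3. For ASO against ACO the chosen probes of these neighbours stood at -0.53, -0.11 and -0.02. Their other measured probes gave -0.01 for Scn3a, -0.13 and 0.20 for Scn2a, and 0.04 for Scn1a, so the genes share no settled direction. Scn2b and Scn4b also adjoin, at 0.22 and 0.18 for ASO against ACO and at -0.02 and -0.44 for ACO against NCO.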
